A study of Mus musculus with 8 samples.

Results

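Layer IV of the visual cortex was compared between mice heterozygous for Otx2 and wild-type mice, both at postnatal day 30 (P30). The comparison covers 15056 autosomal genes of the 15841 genes that passed a filter on low counts. Each gene was represented by its Ensembl transcript with the highest total count. At an adjusted p under 0.05 in edgeR's quasi-likelihood test, 489 autosomal genes differed (3.25% of those tested), 134 higher (0.89%) and 355 lower (2.36%) in heterozygotes. The results below turn on the 236 of these genes (1.57%) that were not called between wild-type mice of P30 and P100. Of them, 87 were higher (0.578%) and 149 lower (0.99%) in heterozygotes. Between wild-type ages 1150 autosomal genes were called (7.64%), 458 higher (3.04%) and 692 lower (4.6%) at P100. A gene not called between ages is not shown to have the same level at both. The difference between the genotype effect and the age effect is the difference between heterozygous P30 and wild-type P100 libraries. That comparison called 772 autosomal genes (5.13%). It passed the test in the same direction for 111 of the 236 genes (0.737% of those tested), 41 higher (0.272%) and 70 lower (0.465%).

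The wild-type mice (Otx2 +/+) and the heterozygous mice (given as Otx2 +/- for the samples and as Otx2 +/GFP for the series) were of the B6D2 strain. Layer IV was dissected by hand and frozen, and total RNA was sequenced. Each condition pooled 4 mice. The 6 libraries analysed were 2 of wild type at P30, 2 of wild type at P100 and 2 of heterozygotes at P30, and the 2 heterozygous P100 samples were not analysed here. The series was run in duplicate. Whether the duplicates are different pools or the same pool sequenced again is not stated, and a p-value here rests on the scatter of duplicates that may be technical.

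Otx2 is a homeodomain transcription factor that patterns the forebrain and the eye in the embryo. After birth its transcript is found in the choroid plexus, from which the protein reaches the cortex and enters parvalbumin interneurons, the fast-spiking inhibitory cells whose maturation opens and closes the critical period for visual plasticity. Layer IV receives the thalamic input that carries visual signals into the cortex. The age of P30 lies within the usual span of this critical period in mice.

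The transcripts kept, 1 per gene, held 11016841 to 15308781 counts per library, of 30651483 to 42374860 over all transcripts. Duplicates were not copies of each other: their chi-square per degree of freedom lay between 3.78 and 5.6. Otx2 could not check the genotype labels, since it had 0 counts in the 4 wild-type libraries and in heterozygous library 1. Xist, which silences an X chromosome in female cells, had 789 and 928 CPM (counts scaled to a common library size) in heterozygotes and 0.269 to 0.635 CPM in wild type. The Y-linked Ddx3y stood at 2.49 and 1.05 CPM against 142 to 155 CPM. Genotype and the sex-linked transcripts moved together, and on autosomes genotype and sex cannot be told apart. Heterozygous library 2 stood apart through choroid plexus transcripts, whose values are given below.

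**Figure D1:**
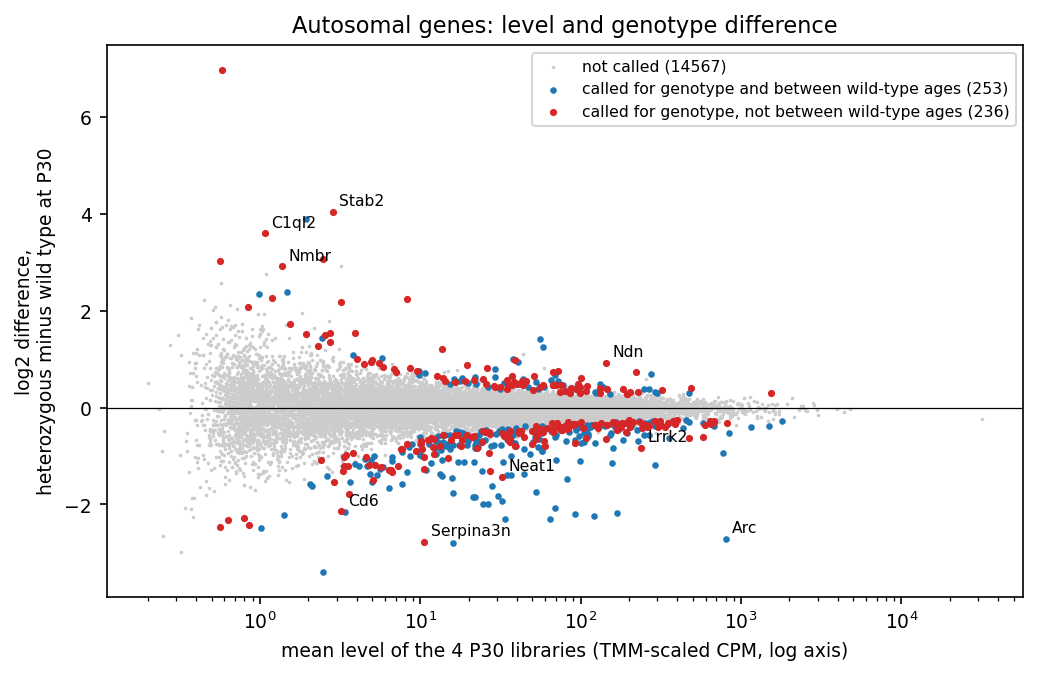
Fitted log2 difference (heterozygous minus wild type at P30) against the mean level of the 4 P30 libraries in TMM-scaled CPM (log axis) for 15056 autosomal genes, each point 1 gene. Red marks the 236 genes called for genotype and not between wild-type ages, blue the other 253 genes called for genotype. The highest red point is Mia2, which had 0 counts in both wild-type P30 libraries, so that its fitted difference is not a bound.

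Most of the 236 differences were below 2-fold. In all 87 higher and all 149 lower genes the P30 groups did not overlap, as in 49.2% of all autosomal genes tested. Where the text below gives the separation of libraries for a gene, that is no further support for its call. The median log2 difference was 0.56 among the 87 higher genes and -0.52 among the 149 lower genes, against 0.00 over all autosomal genes, and 18 and 27 of them passed 2-fold. Of the 87 higher genes, 8 passed the filter on low counts only through the heterozygous libraries (Ano2, Atp6v1c2, C1ql2, Cacna1s, Gm9936, Mia2, Nmbr and Stab2). Of the 149 lower genes, 3 passed it only through the wild-type P30 libraries (Asb4, Atf3 and Kcnq1). Such genes had to differ once they entered the test. The calls rested on few libraries. Of the 236 genes, 31 kept their call under all 15 alternative settings (14 for a gene to which DESeq2 gave no adjusted p), 9 higher and 22 lower. Without heterozygous library 1, 14 of the 87 higher and 36 of the 149 lower genes kept their call. The numbers were 42 and 63 without heterozygous library 2, 19 and 38 without wild-type P30 library 2, and 35 and 85 without wild-type P30 library 1. Without P100 library 1, 58 and 121 kept it, and without P100 library 2, 62 and 124. The number of genes in each set also moved by more than 1.5 times. The set of 87 higher genes held 34 without heterozygous library 1, 50 without heterozygous library 2, 56 without wild-type P30 library 1 and 32 without wild-type P30 library 2. The set of 149 lower genes held 40, 94, 160 and 49 in these 4 fits. Those also called against P100 (41 and 70) held 18 and 29 without P100 library 1, 18 and 35 without P100 library 2, 27 and 17 without heterozygous library 1, 30 and 45 without heterozygous library 2, and 19 and 24 without wild-type P30 library 2. All genes called for genotype (134 and 355) numbered 49 and 123 without heterozygous library 1, 73 and 245 without heterozygous library 2, and 49 and 138 without wild-type P30 library 2. With an unadjusted age p of 0.05 or more as the rule, 58 higher and 89 lower genes remained. The genes given with full values below are those that kept their genotype call in every setting, unless a sentence says otherwise. Whether each gene also stayed uncalled between wild-type ages in every setting was not followed.

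The gene with the smallest p among the 236 was Ndn (chr7:62346569-62350262), which encodes necdin, an imprinted growth suppressor of postmitotic neurons expressed from the paternal allele. Ndn stood at 103 and 94.8 TMM-scaled CPM in wild type at P30, 84.5 and 88.5 CPM in wild type at P100, and 201 and 174 CPM in heterozygotes. Both heterozygous libraries were above all 4 wild-type libraries. The log2 difference was 0.92 (SE 0.08, adjusted p = 3.93e-05), against -0.19 between wild-type ages (adjusted p = 0.198). Lrrk2 (chr15:91673175-91816120), a large kinase and GTPase of vesicle traffic known from inherited Parkinson's disease, had the smallest p among lower genes. It stood at 276 and 332 CPM in wild type at P30, 289 and 301 CPM at P100, and 180 and 162 CPM in heterozygotes. The heterozygous libraries lay below all others (log2 difference -0.83, SE 0.09, adjusted p = 0.000166), with -0.05 between ages (adjusted p = 0.809).

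**Figure D2:**
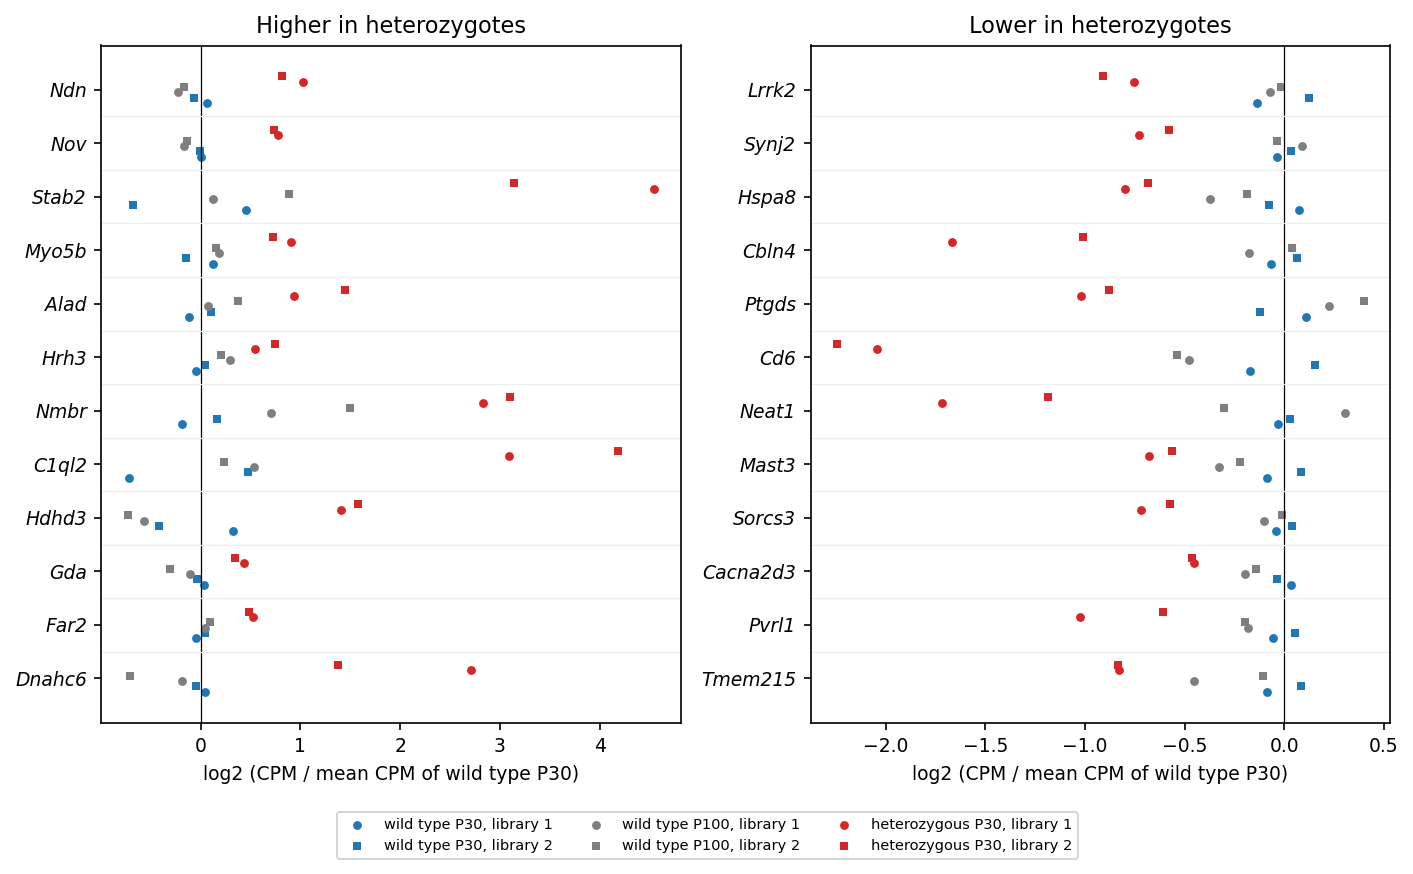
Level of each library relative to the mean of wild type at P30 (log2 scale, TMM-scaled CPM) for the 12 higher and 12 lower genes with the smallest p among those also called against P100; colour gives the group and symbol shape the library. Both heterozygous libraries (red) lie on the same side of all 4 wild-type libraries, a separation that the choice of genes largely sets; in 49.2% of all autosomal genes tested the P30 groups do not overlap.

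The functions of the 236 genes were sorted by hand into 13 groups, after their values were seen, and 90 genes were left ungrouped. Counts per group are therefore a description. Over the whole set 87 of 236 genes were higher, and the groups are read beside that count. Calls in lists of genes of 1 function or cell type stand beside 3.25% of all autosomal genes tested, 0.89% higher and 2.36% lower. Counts at an unadjusted p under 0.05 in edgeR stand beside 17.5% of all autosomal genes tested. In bulk tissue, fewer cells of a type and less RNA per cell cannot be told apart.

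**Figure D3:**
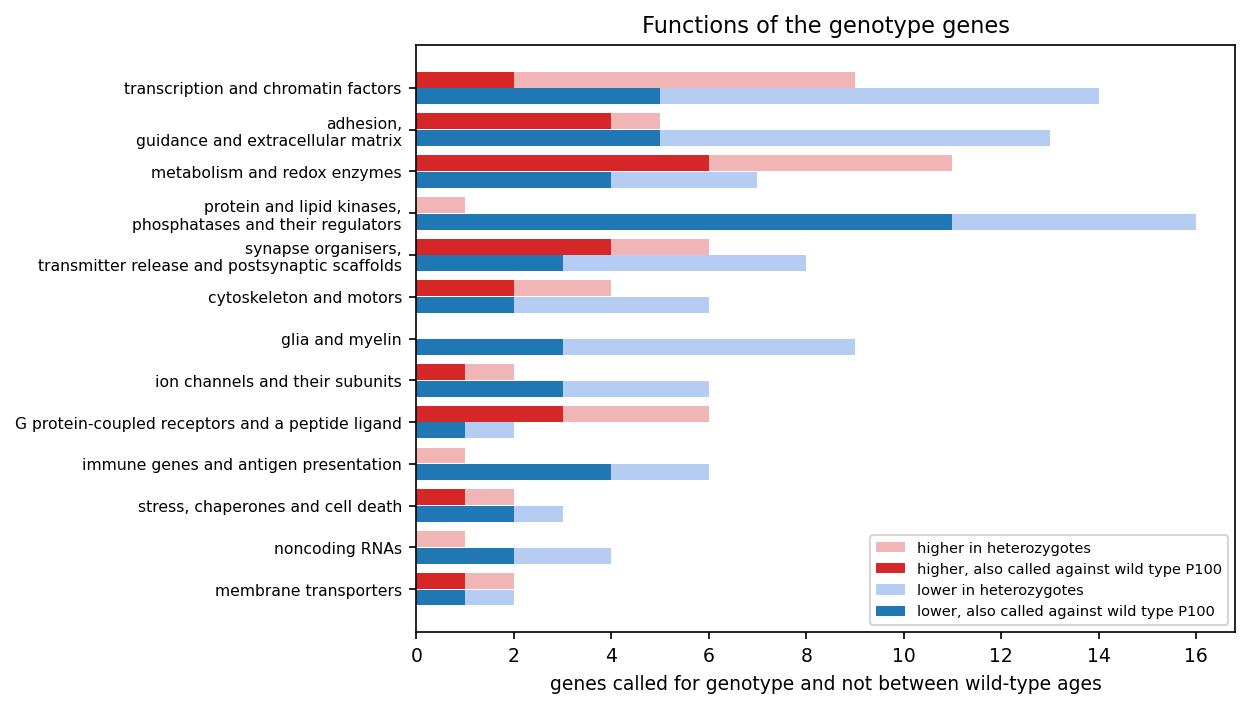
Number of genes called for genotype and not between wild-type ages, by hand-sorted function; red bars count genes higher and blue bars genes lower in heterozygotes, and the dark part of each bar counts those also called against wild type at P100. Kinases and phosphatases hold 1 higher and 16 lower genes, and G protein-coupled receptors with a peptide ligand 6 higher and 2 lower genes. The receptors Gpr37 and Celsr2, both lower, are counted in other groups.

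Of 8 genes sorted as G protein-coupled receptors or a peptide ligand (Grp), 6 were higher (Nmbr, Htr1a, Grp, Oprl1, Hrh3 and Gpr6) and 2 lower (Adra1d and Gpr126), and 3 and 1 of them were also called against P100. Gpr37 and Celsr2, receptors of the same class, were lower too but were sorted with glia and with adhesion genes. The balance of higher and lower receptors therefore depends on the sorting. Hrh3, the histamine H3 receptor that restrains transmitter release, stood at 38.4 and 40.7 CPM in wild type at P30, 48.5 and 45.7 CPM at P100, and 57.6 and 66.6 CPM in heterozygotes. Both heterozygous libraries exceeded every wild-type library (log2 difference 0.65, SE 0.10, adjusted p = 0.00265). Nmbr, the receptor of neuromedin B, stood at 0.274 and 0.348 CPM, at 0.507 and 0.88 CPM, and at 2.21 and 2.67 CPM in the same order. Its log2 difference was 2.92 (SE 0.46, adjusted p = 0.00321), it passed the filter only through the heterozygous libraries, DESeq2 gave it no adjusted p, and 15.6% of its exon bases are shared with another gene. Gpr126, an adhesion receptor known from myelination by Schwann cells, was lower at 1.68 and 1.56 CPM in heterozygotes against 6.12 and 5.08 CPM in wild type at P30 and 6.22 and 2.99 CPM at P100 (log2 difference -1.77, SE 0.33, adjusted p = 0.00973). Htr1a, the inhibitory serotonin receptor, was higher at 44.8 and 37.2 CPM against 30.8 and 28.5 CPM (log2 difference 0.47, adjusted p = 0.0353). That call was lost without any 1 of the libraries other than heterozygous library 2, at 0.33 (adjusted p = 0.397) without heterozygous library 1 and 0.41 to 0.52 without a wild-type library. Grp, the bombesin-like peptide, was at 5.16 and 2.93 CPM against 1.55 and 1.25 CPM, with a log2 difference of 1.54 (adjusted p = 0.046). The call was lost without heterozygous library 1 (1.07, adjusted p = 0.397), wild-type P30 library 1 (1.68, adjusted p = 0.0999), wild-type P30 library 2 (1.37, adjusted p = 0.252) or P100 library 1 (1.53, adjusted p = 0.0505). With all libraries kept, the Grp call was also lost in DESeq2, limma-voom, the filter of 1 CPM and counts summed over transcripts. In the gene lists, 3 of 32 neuropeptide genes tested were higher and none lower, with a median log2 difference of 0.15, and 2 of 28 monoamine and acetylcholine receptors were higher and 2 lower. Of 18 molecular brakes and plasticity receptors of the critical period, 2 were higher (Lypd1, a prototoxin that binds nicotinic receptors, and Htr1a) and none lower, with a median of 0.05. Neither call stood in DESeq2. That of Lypd1 was also lost without wild-type P30 library 2 or heterozygous library 1, and its log2 difference ran from 0.46 to 0.97. That of Htr1a was also lost with the P30 libraries alone and with counts summed over transcripts.

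Kinases, phosphatases and their regulators were nearly all lower. Of 17 such genes 16 were lower, 11 of them also against P100, and Grb10, an imprinted adaptor of insulin receptor signalling, was higher. Lrrk2, described above, is among the lower genes. Synj2, a phosphatase of inositol lipids in vesicle recycling, stood at 171 and 180 CPM in wild type at P30, 187 and 171 CPM at P100, and 106 and 118 CPM in heterozygotes. Both heterozygous libraries were below all 4 wild-type libraries (log2 difference -0.65, SE 0.08, adjusted p = 0.000471). Mast3, a microtubule-associated kinase, was at 124 and 139 CPM, 105 and 113 CPM, and 82.3 and 88.9 CPM in the same order (log2 difference -0.62, SE 0.08, adjusted p = 0.000943). Dusp16, which removes phosphate from stress-activated MAP kinases, and Pdp1, the phosphatase that activates pyruvate dehydrogenase, gave log2 differences of -0.80 and -0.63. They ran from -0.99 to -0.64 and from -0.82 to -0.42 over the alternatives. The other 11 lower genes, among them Fgfr2 (a receptor of fibroblast growth factors), Plcg1 (a phospholipase downstream of such receptors), Spry4 (an inhibitor of their signalling), Rcan2 (an inhibitor of calcineurin) and Plk2 (a kinase of synaptic scaling), each lost the call in at least 1 fit that left out a library. Spry4, for example, ran from -1.26 to -0.56 and Plk2 from -0.45 to -0.23.

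Organisers of synapses went both ways. Among 14 genes of synapse formation, transmitter release and postsynaptic scaffolds, 6 were higher (among them Lypd1, C1ql2, C1ql3, Doc2a and Lrrtm4) and 8 lower (Akap5, Cbln2, Baiap2, Syt13, Bsn, Iqsec3, Dlgap3 and Cbln4). C1q-like proteins and cerebellins are related secreted proteins that bridge both sides of a synapse. Cbln4 (chr2:172036233-172043466) stood at 37.0 and 40.5 CPM in wild type at P30, 34.3 and 39.8 CPM at P100, and 12.2 and 19.2 CPM in heterozygotes. Both heterozygous libraries were far below the others (log2 difference -1.30, SE 0.16, adjusted p = 0.000608). Cbln2 was at 66.9 and 85.2 CPM, 50.0 and 70.8 CPM, and 43.2 and 44.9 CPM (log2 difference -0.79, adjusted p = 0.00832) and was not called against P100 (adjusted p = 0.0978). Its call was lost without wild-type P30 library 2, and the difference ran from -0.95 to -0.60 over the settings. C1ql2 was higher, from 0.0913 and 0.209 CPM at P30 and 0.217 and 0.176 CPM at P100 to 1.27 and 2.73 CPM in heterozygotes. The wild-type values are 1 to 3 counts per library, at or under the floor of 3 counts, against 19 and 42 in heterozygotes, and the gene passed the filter only through these. The ratio of summed counts at P30 was 13.1, with an exact 95% interval of 4.86 to 49.6 that covers counting error only. The fitted log2 difference, which depends on the prior count, was 3.60 (adjusted p = 0.00716). It became 2.94 (adjusted p = 0.0722) without heterozygous library 2 and 4.33 (adjusted p = 0.0616) without wild-type P30 library 2. Akap5, the scaffold that anchors protein kinase A and calcineurin at the postsynaptic density, was at 369 and 396 CPM, 325 and 330 CPM, and 295 and 288 CPM. Its log2 difference was -0.39 (SE 0.07, adjusted p = 0.00482), and -0.17 against P100 (adjusted p = 0.178).

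Of 8 channel genes among the 236, 2 were higher (Cacna1s and Ano2) and 6 lower (among them Kcnq1, Cacna2d3, Grin2b and Kcna1), with fold differences of 1.21 to 8.13 in size. Cacna1s and Ano2 passed the filter on low counts only through the heterozygous libraries, and Kcnq1 only through the wild-type P30 libraries. Their differences were therefore set by the filter and are no result about channels. Kcnq1, a potassium channel of heart and epithelia, was near the limit of detection, at 1.00 and 0.904 CPM in wild type at P30, 0.362 and 0.44 CPM at P100, and 0.134 and 0.195 CPM in heterozygotes. Its call was lost without any 1 of the 6 libraries (log2 difference -2.46, adjusted p = 0.0399, and -2.74 to -2.23 over the settings). Cacna2d3, an auxiliary subunit of voltage-gated calcium channels, stood at 200 and 191 CPM in wild type at P30, 171 and 177 CPM at P100, and 143 and 142 CPM in heterozygotes (log2 difference -0.46, SE 0.07, adjusted p = 0.0021). Grin2b, the NMDA receptor subunit that dominates early in postnatal life, was at 683 and 721 CPM, 743 and 700 CPM, and 558 and 600 CPM. The log2 difference of -0.28 (adjusted p = 0.0399) was -0.23 (adjusted p = 0.39) without heterozygous library 1, -0.33 (adjusted p = 0.0813) without heterozygous library 2 and -0.24 (adjusted p = 0.161) without wild-type P30 library 2. By list, 3 of 46 potassium channels (6.52%) and 2 of 31 sodium and calcium channels tested (6.45%) were lower and none higher. Of 23 glutamate receptors 2 were lower (8.7%) and none higher, against 3.25% of all autosomal genes called. The medians of these lists were -0.04, -0.11 and 0.05, and 15 of the 23 glutamate receptors had a positive sign. Grin1, the other glutamate receptor called, ran from -0.29 to -0.21 over the settings and lost its call with upper-quartile scaling. EdgeR called none of 19 genes of GABA receptors and chloride transport (4 higher and 1 lower at an unadjusted p under 0.05, and none in DESeq2).

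Adhesion, guidance and matrix genes held 5 higher and 13 lower members. Nov (also Ccn3), a secreted matrix-associated signalling protein, stood at 53.7 and 53.1 CPM in wild type at P30, 47.5 and 48.5 CPM at P100, and 91.6 and 89.0 CPM in heterozygotes. The 2 heterozygous libraries were close to each other and above all others (log2 difference 0.76, SE 0.08, adjusted p = 0.000195). Epha10, an ephrin receptor that lacks kinase activity, was lower at 27.2 and 27.8 CPM against 43.4 and 47.1 CPM at P30 and 33.8 and 37.5 CPM at P100 (log2 difference -0.72, SE 0.10, adjusted p = 0.0015). Between wild-type ages Epha10 differed by -0.35 (adjusted p = 0.0518), and it was not called against P100 (-0.37, adjusted p = 0.0538). Pvrl1, the adhesion protein nectin-1, and Tenm4, a teneurin of synaptic matching, were lower by log2 differences of -0.80 (adjusted p = 0.00265) and -0.41 (adjusted p = 0.00324). By list, 3 of 42 axon guidance genes were lower and none higher.

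Proteins of motors and the cytoskeleton gave 4 higher and 6 lower genes. Myo5b, a myosin that carries recycling endosomes, was at 20.6 and 17.1 CPM in wild type at P30, 21.4 and 21.03 CPM at P100, and 35.4 and 31.2 CPM in heterozygotes (log2 difference 0.83, SE 0.12, adjusted p = 0.00206). Dnahc6, a dynein heavy chain of motile cilia, was at 1.19 and 1.11 CPM, 1.01 and 0.704 CPM, and 7.51 and 2.99 CPM. Heterozygous library 1 was more than 2-fold above library 2, and the log2 difference of 2.18 (adjusted p = 0.0132) was 1.38 (adjusted p = 0.181) without it. The call was also lost without wild-type P30 library 1 (2.23, adjusted p = 0.0514) or library 2 (2.13, adjusted p = 0.109). Stab2, a scavenger receptor for hyaluronan known from sinusoidal endothelium, stood at 0.456 and 0.209 CPM, 0.362 and 0.616 CPM, and 7.77 and 2.93 CPM. These are 3 to 7 counts in each wild-type library and 116 and 45 in heterozygotes, and Stab2 passed the filter only through the latter. The fitted log2 difference was 4.04 (SE 0.58, adjusted p = 0.00176), running from 3.17 to 4.62 over the alternatives, and library 1 was again the higher one.

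Among enzymes of metabolism and redox balance, 11 genes were higher and 7 lower. Alad, an enzyme of heme synthesis (chr4:62509169-62519918), stood at 7.58 and 8.83 CPM in wild type at P30, 8.61 and 10.7 CPM at P100, and 15.7 and 22.3 CPM in heterozygotes (log2 difference 1.20, SE 0.18, adjusted p = 0.00265). Its neighbour Hdhd3 (chr4:62499008-62503467), a hydrolase of the haloacid dehalogenase family, rose as well, from 2.56 and 1.53 CPM at P30 and 1.37 and 1.23 CPM at P100 to 5.43 and 6.12 CPM. The log2 difference of Hdhd3 was 1.53 (SE 0.27, adjusted p = 0.00739), and 1.17 (adjusted p = 0.0967) without wild-type P30 library 2. Glo1, the glyoxalase that clears methylglyoxal, was at 34.3 and 38.4 CPM, 33.6 and 38.6 CPM, and 54.5 and 46.2 CPM (log2 difference 0.47, adjusted p = 0.0392), and ran from 0.34 to 0.58 over the alternatives, with the call lost without heterozygous library 1 or either wild-type P30 library. Alad and Glo1 each lie in a segment known to be duplicated in some inbred mouse strains, DBA/2 among them. Whether the pools differed in strain alleles was not tested. Gda, a guanine deaminase that also shapes dendrites, was at 433 and 414 CPM, 392 and 343 CPM, and 574 and 538 CPM (log2 difference 0.39, adjusted p = 0.0105), and lost the call without heterozygous library 1 (0.35, adjusted p = 0.12) or wild-type P30 library 2 (0.36, adjusted p = 0.0691). Both Ckb and Gatm, enzymes of creatine metabolism, were lower, with log2 differences of -0.41 (adjusted p = 0.0129) and -0.37 (adjusted p = 0.0361). Each call was lost without any 1 of the 4 P30 libraries, and the differences ran from -0.44 to -0.38 and from -0.42 to -0.30. Neither edgeR nor DESeq2 called any of the 22 glycolysis genes (1 higher and 2 lower at an unadjusted p under 0.05) or of the 70 respiratory chain genes (3 higher and 0 lower).

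All 9 genes of glia and myelin were lower: Ndrg1, Ptgds, Gfap, Apod, Ermn, Cst3, Padi2, Trf and Gpr37. Ptgds, the prostaglandin D synthase of oligodendrocytes and meninges, stood at 37.9 and 32.3 CPM in wild type at P30, 41.0 and 46.3 CPM at P100, and 17.3 and 19.1 CPM in heterozygotes. The heterozygous libraries were at about the same level as each other and below all others (log2 difference -0.94, SE 0.12, adjusted p = 0.000646; -1.26 against P100). Gfap, the intermediate filament of astrocytes, was at 21.5 and 18.6 CPM, 10.7 and 23.9 CPM, and 10.1 and 9.44 CPM. Its call (log2 difference -1.03, adjusted p = 0.046) was lost without any 1 of the 4 P30 libraries, at -1.14 to -0.94. With all libraries kept, the Gfap call was also lost in DESeq2, limma-voom, upper-quartile scaling, the filter of 1 CPM and counts summed over transcripts. Of the 23 markers of myelinating oligodendrocytes tested, 15 were lower and none higher, with a median log2 difference of -0.52. Only 4 of these 15 (Ermn, Trf, Ndrg1 and Apod) were among the genes not called between wild-type ages. Astrocyte markers were lower in 3 of 20, microglial markers in 2 of 20, precursors of oligodendrocytes in 2 of 13, and endothelial and mural markers in 1 of 19, with none higher.

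Immune genes were lower in 6 of 7 cases, and 4 of these were also called against P100. Cd6, a surface receptor of T cells, stood at 4.66 and 5.84 CPM in wild type at P30, 3.76 and 3.61 CPM at P100, and 1.27 and 1.11 CPM in heterozygotes (log2 difference -2.14, SE 0.27, adjusted p = 0.000669). Serpina3n, a secreted protease inhibitor of reactive astrocytes, had the largest fitted fall among the 236 genes. It was at 17.7 and 19.2 CPM at P30, at 20.6 and 3.08 CPM at P100, and at 3.42 and 2.02 CPM in heterozygotes. The P100 libraries differed widely from each other, and library 2 reached the heterozygous range. The log2 difference of -2.77 (SE 0.55, adjusted p = 0.0141) was -2.70 without wild-type P30 library 2. The call was lost in that fit, in DESeq2 (adjusted p = 0.144) and with counts summed over transcripts. Tap2, a transporter that loads peptides for presentation, and H2-D1, an MHC class I heavy chain, were lower by log2 differences of -0.94 (adjusted p = 0.0374) and -0.84 (adjusted p = 0.0469). Both calls were lost without any 1 of the 4 P30 libraries, at -1.10 to -0.81 and -0.98 to -0.71, and that of Tap2 also without P100 library 1 (-0.95, adjusted p = 0.0606) or library 2 (-0.94, adjusted p = 0.0559). In DESeq2 the calls of Tap2 and H2-D1 were also lost. That of H2-D1 was lost as well in limma-voom, upper-quartile scaling, the filter of 1 CPM and counts summed over transcripts. The list of 18 interferon and MHC class I genes held these 2 lower genes and no higher one, with a median of -0.60.

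Transcription and chromatin factors formed the largest group, with 9 higher and 14 lower genes. Hopx, a small homeodomain protein of astrocytes and other cells, was the one that kept its call in every setting (15.9 and 12.5 CPM at P30, 12.5 and 10.1 CPM at P100, 7.37 and 6.44 CPM in heterozygotes, log2 difference -1.03, adjusted p = 0.00535), although 27.2% of its exon bases are shared. Crem, a cyclic AMP response factor, was at 25.6 and 34.4 CPM, 27.9 and 26.7 CPM, and 17.96 and 18.8 CPM (log2 difference -0.72, adjusted p = 0.00999). Without heterozygous library 1 Crem gave -0.69 (adjusted p = 0.0731), and without wild-type P30 library 2 it gave -0.48 (adjusted p = 0.106). The stress-induced factors Atf3, Atf4 and Jun were lower as well, each with a call that some leave-one-out fit lost. Atf3 passed the filter on low counts only through the wild-type P30 libraries, so it had to differ once it entered the test. The Atf4 call was also lost in DESeq2 and with counts summed over transcripts. The circadian clock list held 4 higher and 4 lower genes of 19, of which only Tef (higher) and Arntl (lower) were not called between wild-type ages. All 29 called members of the 32 activity-regulated genes were lower (median log2 difference -1.39), and none of them belongs to the 236, since all 29 were also called between ages. This count covers the members of that list only. Atf3, Jun, Crem and Plk2 are not among them, and all were lower and belong to the 236.

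Among chaperones, Hspa8, the constitutive heat shock protein that uncoats clathrin vesicles, stood at 122 and 110 CPM in wild type at P30, 89.2 and 102 CPM at P100, and 66.6 and 72.0 CPM in heterozygotes (log2 difference -0.74, SE 0.09, adjusted p = 0.000511). Of 20 heat shock and chaperone genes tested, 3 were lower and none higher. Among noncoding RNAs, Neat1 (chr19:5824708-5845478), the scaffold of nuclear paraspeckles, was at 46.3 and 48.2 CPM, 58.3 and 38.3 CPM, and 14.3 and 20.8 CPM in these groups. Its log2 difference was -1.43 (SE 0.18, adjusted p = 0.000778), and both heterozygous libraries lay below all others.

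Markers of cortical layers bear on the dissection. Of 13 layer 4 markers tested, 3 were lower and none higher, and all 3 (Tmem215, Whrn and Cux1) belong to the 236. Tmem215, a membrane protein, stood at 27.2 and 30.6 CPM in wild type at P30, 21.1 and 26.8 CPM at P100, and 16.3 and 16.2 CPM in heterozygotes (log2 difference -0.83, SE 0.13, adjusted p = 0.00309). Whrn, the scaffold protein whirlin, was at 60.7 and 67.4 CPM, 60.1 and 55.8 CPM, and 43.8 and 42.7 CPM (log2 difference -0.57, SE 0.09, adjusted p = 0.00412). Cux1, a factor of upper layer neurons, gave -0.43 (adjusted p = 0.0153), and lost the call without wild-type P30 library 2 (-0.32, adjusted p = 0.163) or heterozygous library 2 (-0.35, adjusted p = 0.131). Between wild-type ages Cux1 differed by -0.27 (adjusted p = 0.0727), and it was not called against P100 (adjusted p = 0.361). The median of the layer 4 list was -0.15. Layer 5 markers lay on the other side, with 2 of 15 higher (Etv1 and Parm1), none lower, a median of 0.40 and 14 of 15 positive signs. Parm1 gave 0.43 (adjusted p = 0.0199) and was not called against P100 (adjusted p = 0.061). Its call was lost without any 1 of the 4 P30 libraries and with counts summed over transcripts, at 0.39 to 0.47 over the settings. Etv1, a transcription factor of layer 5 neurons, gave 0.55 (adjusted p = 0.0473) and 0.42 (adjusted p = 0.393) without heterozygous library 1, 0.55 (adjusted p = 0.109) without wild-type P30 library 1 and 0.53 (adjusted p = 0.194) without library 2. Layer 6 markers gave no call in 13 genes by edgeR or DESeq2 (4 higher at an unadjusted p under 0.05) and a median of 0.18, and layer 2/3 markers gave 2 lower of 13 with a median of -0.01. Of 14 markers of striatum, hippocampus and thalamus, 1 (Gpr6) was higher, with a median of -0.06. The part that the depth of the dissection had in these values was not tested.

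No marker of parvalbumin interneurons was called by edgeR or DESeq2, and 4 were higher and 2 lower at an unadjusted p under 0.05. Of the 22 tested, 14 had a positive and 8 a negative sign, with a median log2 difference of 0.09. Pvalb itself had a log2 difference of -0.02 (adjusted p = 0.946). None of 19 markers of other interneurons was called in edgeR (5 higher and 2 lower at an unadjusted p under 0.05), DESeq2 called 1 lower, and the median was 0.20. In perineuronal nets, the matrix around parvalbumin cells, 2 of 24 genes were lower (Tnr and Adamts4) and none higher, and both were also called between wild-type ages. At a threshold of unadjusted p under 0.05, 17.5% of all autosomal genes differed by genotype.

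**Figure D4:**
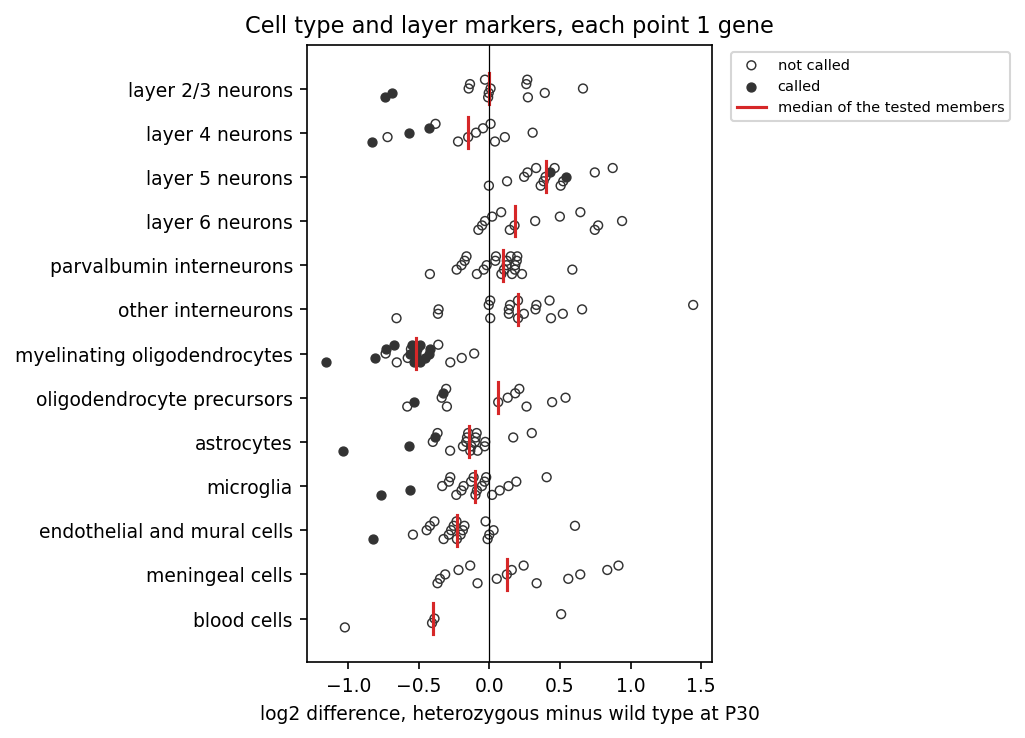
Log2 difference (heterozygous minus wild type at P30) of the tested autosomal markers of each cell type or layer, each point 1 gene; filled points were called and red bars mark the median. All 23 markers of myelinating oligodendrocytes lie below 0 and 14 of 15 layer 5 markers above it, while the 22 parvalbumin markers lie on both sides with no call.

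Positions in the genome were examined because the targeted allele lies on chromosome 14. Within 10 Mb of Otx2 (chr14:48657677-48673819), 3 of 144 genes tested were called (2.08%), against 3.25% over all autosomes. Tmem260, a membrane protein gene, was the one of the 3 that belongs to the 236. It stood at 31.2 and 28.6 CPM in wild type at P30, 37.4 and 31.7 CPM at P100, and 22.2 and 20.2 CPM in heterozygotes (log2 difference -0.49, adjusted p = 0.0353), and 18.6% of its exon bases are shared. The call was lost without any 1 of the 4 P30 libraries, and the difference ran from -0.56 to -0.43.

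Promoter sequence was searched for the motif TAATCC, which Otx2 and related homeodomain proteins bind, and for TGACGTCA, the full cyclic AMP response element, on both strands of a window from 250 bases before to 50 bases after the start of each gene (RefSeq, GRCm38.p6). TAATCC was found in 5 of 63 promoters of the higher genes (7.94%) and 4 of 93 of the lower genes (4.3%), against 6.9% of the 10110 autosomal genes tested that had a window. TGACGTCA was found in 1 of 63 (1.59%) and 3 of 93 (3.23%), against 3.56%. The 4 promoters below show where the motifs stand in 2 higher genes with TAATCC and 2 lower genes with TGACGTCA, all on the plus strand, with the motif or its reverse complement in capitals. They were chosen after their values were seen.
Cacna1s: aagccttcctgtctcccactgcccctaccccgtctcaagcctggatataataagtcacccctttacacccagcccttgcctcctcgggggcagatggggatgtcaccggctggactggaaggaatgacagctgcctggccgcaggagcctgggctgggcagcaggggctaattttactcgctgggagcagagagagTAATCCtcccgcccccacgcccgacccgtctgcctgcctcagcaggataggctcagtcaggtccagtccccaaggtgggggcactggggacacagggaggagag
Vat1l: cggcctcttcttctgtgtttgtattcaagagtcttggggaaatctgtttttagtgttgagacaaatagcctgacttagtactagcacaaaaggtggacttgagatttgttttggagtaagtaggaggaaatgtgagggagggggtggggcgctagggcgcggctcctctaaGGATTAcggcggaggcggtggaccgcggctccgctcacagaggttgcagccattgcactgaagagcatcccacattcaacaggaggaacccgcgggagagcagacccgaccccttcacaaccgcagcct
Fstl4: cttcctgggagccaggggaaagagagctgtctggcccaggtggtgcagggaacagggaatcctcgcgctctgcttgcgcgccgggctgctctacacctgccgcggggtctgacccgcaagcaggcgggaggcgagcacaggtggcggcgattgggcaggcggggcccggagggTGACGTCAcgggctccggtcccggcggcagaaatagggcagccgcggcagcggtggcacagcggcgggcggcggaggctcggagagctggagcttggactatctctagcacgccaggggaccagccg
Plk2: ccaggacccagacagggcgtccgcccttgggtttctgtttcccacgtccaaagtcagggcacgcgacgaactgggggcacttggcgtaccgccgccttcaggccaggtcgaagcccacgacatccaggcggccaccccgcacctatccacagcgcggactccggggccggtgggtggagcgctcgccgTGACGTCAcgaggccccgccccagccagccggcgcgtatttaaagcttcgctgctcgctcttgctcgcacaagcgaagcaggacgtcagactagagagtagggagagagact
The window of Cacna1s, a calcium channel of skeletal muscle, is chr1:136052561-136052860, and its motif begins at position -54 from the start. Cacna1s was at 0.73 and 0.139 CPM in wild type at P30 and at 1.81 and 2.08 CPM in heterozygotes. It passed the filter on low counts only through the heterozygous libraries. Vat1l (chr8:114205390-114205689), a relative of a vesicle amine transport protein, carries the reverse complement at -79 and was at 37.9 and 36.0 CPM against 58.0 and 50.6 CPM (log2 difference 0.56, adjusted p = 0.0374). Fstl4 (chr11:52764456-52764755), a secreted follistatin-like protein, holds the response element at -77 and was at 52.4 and 54.6 CPM against 31.8 and 38.8 CPM (log2 difference -0.60, adjusted p = 0.00828). Plk2 (chr13:110394794-110395093) holds it at -62 and was at 404 and 468 CPM against 341 and 346 CPM (log2 difference -0.34, adjusted p = 0.0246). A match is a run of letters and not a measured binding site, and all 4 calls were lost in some fit that left out a library: Cacna1s ran from 1.40 to 3.72, Vat1l from 0.46 to 0.65, Fstl4 from -0.75 to -0.46 and Plk2 from -0.45 to -0.23.

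Choroid plexus transcripts set heterozygous library 2 apart. The choroid plexus is the secretory epithelium of the ventricles and lies outside the cortex. Of 20 markers, 18 were highest in heterozygous library 2, and 17 of them were there at 2 times the next library or its floor of 3 counts, or more. Summed CPM of the 20 markers (scaled by library totals) was 317 and 325 in wild type at P30, 258 and 292 at P100, 306 in heterozygous library 1 and 1218 in heterozygous library 2. Without Ttr, Enpp2, Igfbp2, Trpm3 and Col8a1, which other brain cells express or which lead the sum, the remaining 15 markers summed to 3.09 to 5.01 CPM in 5 libraries and to 60.6 CPM in heterozygous library 2. Ttr, the transport protein of thyroid hormone, had 8966 counts (586 CPM) there and at most 1 count in every other library. Otx2 itself had 73 counts (4.77 CPM) there and 0 elsewhere, which allows up to 0.202 CPM in heterozygous library 1 at a floor of 3 counts. The chloride channel gene Clic6 had 92 counts, the potassium channel subunit Kcne2 91, Tmem72 68 and the channel Kcnj13 53, against at most 3 in every other library.

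**Figure D5:**
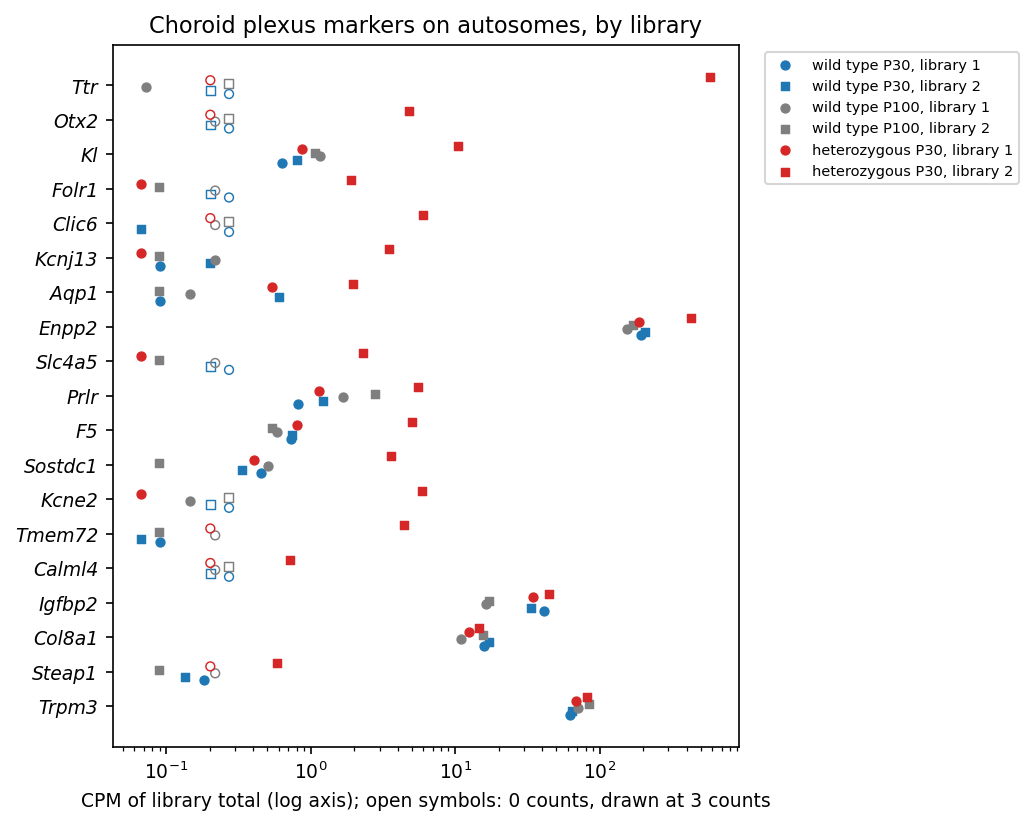
CPM of the 19 autosomal choroid plexus markers in each library (log axis, scaled by library totals); colour gives the group and symbol shape the library, and open symbols stand for 0 counts, drawn at 3 counts. Heterozygous library 2 (red squares) is highest for all markers except Col8a1 and Trpm3, and Ttr stands there at 586 CPM.

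Of the 19 autosomal markers 7 passed the filter on low counts and 0 were called by edgeR or DESeq2, while 4 were higher at an unadjusted p under 0.05. Kl, which encodes the anti-ageing protein klotho, came closest, at 0.876 and 10.5 CPM in heterozygotes against 0.635 and 0.807 CPM in wild type at P30 (log2 difference 2.92, adjusted p = 0.0754). Without heterozygous library 2 its difference was 0.22 (adjusted p = 0.915). It was called without heterozygous library 1 (3.79, adjusted p = 3.4e-06), with no filter on low counts (2.92, adjusted p = 7.58e-17) and with the replicate block (2.82, adjusted p = 0.0193). A search over all autosomal genes for at least 30 counts and 10 times the level of every other library found 7 genes in heterozygous library 2 (Ttr, 1500015O10Rik, Clic6, Kcne2, Otx2, Tmem72 and Kcnj13) and none in any other library. Among the 87 genes higher in heterozygotes and not called between ages, library 2 was above library 1 in 33, and C1ql2 was the gene at 2 times library 1 or more. Stab2 and Dnahc6 were at 2 times library 2 or more in library 1.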

How the data were processed

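Raw read counts per Ensembl transcript were deposited by the authors for 6 libraries; the mm10 build and the tools HTSeq, Bowtie and DESeq 1.8.3 come from the submitters' processing notes. Which annotation was used, and whether strand was, is not given in the sources used here, so reads of overlapping genes cannot be told apart. Of 95533 transcripts, 9669 without a gene (13.96% of counts) were left out, and each gene took the transcript with the highest total. The counts of a gene's other transcripts were left out as well, and CPM are scaled to the counts kept. Positions follow GENCODE M21 (GRCm38), matched by ID for 33742 of 34980 genes and by unique symbol for 462.

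Sample groups follow the labels. Genes had to pass edgeR's filterByExpr at a count of 10 and a total of 15, and TMM factors were 0.968 to 1.02. The quasi-likelihood test of edgeR 4.0.16, run in R 4.3.3, used 1 factor of 3 groups and 3 residual degrees of freedom. P-values were adjusted by Benjamini-Hochberg over all 15841 genes, with a threshold of 0.05. The floor of a library with 0 counts is 3 counts and covers counting error only. The procedure was also run on simulated counts with the same spread for all genes and no effects of single libraries. That run is no support for the calls here. The genotype and age comparisons share the wild-type P30 libraries, so their values are only given side by side.

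Alternatives were other scalings and filters, DESeq2 1.42.0, limma-voom (limma 3.58.1), the P30 libraries alone, counts summed over transcripts, a replicate block and leaving out each library. The members, the 50 gene lists and the rules were chosen with earlier results of these data known. Autosomal genes were named by rule. Otx2, Pvalb and the choroid plexus markers were fixed. The 15 largest rises and falls were taken among the 236 genes with a mean CPM of 1 or more and P30 groups without overlap. Under the same limits, the 12 rises and 12 falls with the smallest p that were also called against P100 were taken. Of each list, up to 4 called members were named or, with none called, the member with the smallest p. Other genes, and the function groups, were chosen after their values were seen. Of the lists, 36 had at least 1 called member and 14 had none. Log2 values and adjusted p-values of the authors' deposited table gave the same direction for all 489 called genes, 249 of them with an adjusted p under 0.05. That table makes the same comparison in the same series, so the shared direction is no independent support for the calls. Some genes are not reported here.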

Additional observations from a re-analysis of the deposited data

Results flagged for a closer look

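In heterozygous library 2, 12 autosomal choroid plexus markers that failed the filter on low counts, and so entered no test, stood above every wild-type library and its floor of 3 counts. Ttr stood at 586 CPM and Otx2 at 4.77 CPM. Clic6 reached 6.01 CPM, Kcne2 5.94 CPM, Tmem72 4.44 CPM, Sostdc1 3.59 CPM and Kcnj13 3.46 CPM. Slc4a5 was at 2.29 CPM, Aqp1 at 1.96 CPM, Folr1 at 1.89 CPM, Calml4 at 0.719 CPM and Steap1 at 0.588 CPM. Heterozygous library 1 had 0 counts of Ttr and Otx2.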

How the results depend on the processing

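With 2 libraries per group, the counts depended on single libraries and on the unit counted. The order below is genes higher and lower in heterozygotes (134 and 355 as reported), those not called between ages (87 and 149) and those also called against P100 (41 and 70). With no filter on low counts these were 368 and 701, 242 and 326, and 114 and 159. Counts summed over transcripts gave 65 and 184, 39 and 76, and 19 and 30, and a choroid plexus sum of 1177 CPM in heterozygous library 2 against 1218. DESeq2 lowered the higher genes to 81, 51 and 27, and gave no adjusted p for 12 of the 489 called genes. Leaving out 1 library at a time gave 49 to 108 and 123 to 359, 32 to 89 and 40 to 216, and 18 to 32 and 17 to 75. An unadjusted age p of 0.05 or more left 58 and 89 genes. Same-numbered libraries did not deviate together (correlations of 0.1 for wild type and heterozygotes at P30, and near 0 for the other pairs of groups), so the numbers are not taken as pairs. With the replicate block 183 and 434 genes were called, 123 and 188 were not called between ages, and 62 and 88 were also called against P100. Pvalb changed sign, from -0.02 to 0.02 without heterozygous library 2, and ran from -0.06 to 0.02 over the fits that left out 1 library. The cause of these changes was not tested. RLE and upper-quartile scaling, a filter of 1 CPM in 2 libraries and limma-voom kept these 6 counts within 1.5 times. The P30 libraries alone gave 107 and 325 for the first 2, and the others need the P100 libraries. Of 127 named genes that were called, 48 kept the call in every alternative that gave an adjusted p.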

Other observations

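The transcripts counted for the 236 genes were a little longer than usual. Their median length was 3258 bases for higher and 3476 bases for lower genes, against 2931 bases over all autosomal genes tested. Their median GC content was 48.8% and 51.4%, against 50.1%. By chromosome, the share of autosomal genes called for genotype ran from 1.81% on chromosome 16 to 4.89% on chromosome 19. At the threshold, 2010315B03Rik (adjusted p = 0.0484) and Apod (0.0495) were the last genes called, and Pdzd2 and Aspa (both 0.0502) the first that were not. In the authors' deposited table of the same comparison, 107 of the 236 genes had an adjusted p under 0.05, 32 higher and 75 lower. Neither edgeR nor DESeq2 called any of 30 proteasome and ubiquitin genes, 74 ribosomal proteins, 30 genes of Wnt signalling or 18 of Notch signalling. At an unadjusted p under 0.05 in edgeR, these lists held 2 higher and 0 lower, 2 and 3, 1 and 4, and 3 and 2 genes. At that threshold 17.5% of all autosomal genes differed. In edgeR, 4 of 20 cholesterol synthesis genes and 3 of 22 genes of the unfolded protein response were lower.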
